A study of Mus musculus with 12 samples.

Results

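Mertk, Axl and Tyro3, the TAM family of receptor tyrosine kinases, and their ligands Gas6 and Pros1 were followed across mouse 4T1 tumours from 4 groups of mice. The 5 genes, out of 35434 in the count table, were taken as a named family. Mertk was chosen by its measured levels in these same tumours, for the way they moved with altitude and IOX2, so its values are given as a description without a test. The other 4 genes came with it as its relatives and ligands and were tested.

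TAM receptors sit on phagocytes and on many other cells. Gas6 and protein S, the product of Pros1, bind phosphatidylserine on the surface of dying cells with one end and a TAM receptor with the other, so that the phagocyte takes up the dying cell. Signals from the receptors also damp inflammatory cytokine production. Both ligands need vitamin K-dependent carboxylation to bind membranes. Mertk is best known on macrophages that clear dead cells, and Axl is widely made by fibroblasts, vessel cells and carcinoma cells.

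4T1 is a mouse triple-negative mammary carcinoma line, grown here under the skin of female BALB/c mice aged 6 to 8 weeks. Groups HI and HC lived in a hypobaric chamber at a simulated 3500 m, and groups MI and MC at the ambient 1500 m of Lanzhou. Every group had 3 days of acclimatization. HI and MI received IOX2, an inhibitor of the oxygen-sensing enzyme PHD2, at 10 mg/kg into the peritoneum. Doses were given each day for 10 days, starting on day 9 after inoculation. HC and MC received vehicle on the same days, and every tumour was collected on study day 22. Each group had 3 mice with 1 tumour library each, numbered 1 to 3. HI and HC alone were in the chamber, so the effect of altitude cannot be told apart from that of living in the chamber; both are meant by altitude here.

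Totals ran from 31661685 to 40019343 counts per library, and 15269 genes passed the filter on low counts, all 5 family genes among them. Epithelial markers, expected of a carcinoma, summed to 3777 to 4912 CPM per library (library-size-scaled counts, the usual unit of edgeR), and none of the 8 was at 0. Library HC1 had the highest summed fat-cell markers (394 CPM, against 25.1 to 39.4 CPM in MC) and fibroblast markers (8417 CPM, against 4706 to 6384 CPM in MC). MI1 had the highest summed skeletal muscle markers, 359 CPM. Markers of red cells were higher at altitude averaged over treatment. There 4 of 4 genes passed the edgeR threshold of an adjusted p under 0.05, beside 0.498% of all tested genes. The near-identical copies Hba-a1 and Hba-a2 were among the 4. Red-cell markers were also higher with IOX2, with 4 of 4 passing averaged over altitude, beside 0.0393% of all tested genes. In MI against MC 3 of 4 passed, beside 0.0262%. Log2 changes of the 4 genes were 1.43 to 1.70 for altitude averaged over treatment and 1.93 to 2.23 for IOX2 averaged over altitude. They summed to 150.7 to 289 CPM in HI, 52.7 to 97.4 CPM in HC, 80.1 to 111 CPM in MI and 17.8 to 18.8 CPM in MC.

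Compared per gene length, Axl was the dominant TAM receptor in every tumour. Its deposited level averaged 136 FPKM (fragments scaled by gene length and library total) over the 12 libraries, with a range of 114.8 to 153. Tyro3, the receptor best known from the nervous system, averaged 3.14 FPKM (2.76 to 3.61), and Mertk averaged 1.90 FPKM (1.06 to 3.91). Axl thus took 95.3% to 97.2% of the FPKM of the 3 receptors together. Gas6, which activates all 3 receptors, averaged 20.4 FPKM (10.2 to 47.9). Pros1, which in the mouse activates Mertk and Tyro3 but not Axl, averaged 14.0 FPKM (10.7 to 18.2). Among all tested genes, the mean FPKM stood at percentile 97.4 for Axl, 78.0 for Gas6, 69.8 for Pros1, 38.5 for Tyro3 and 31.3 for Mertk.

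**Figure D1:**
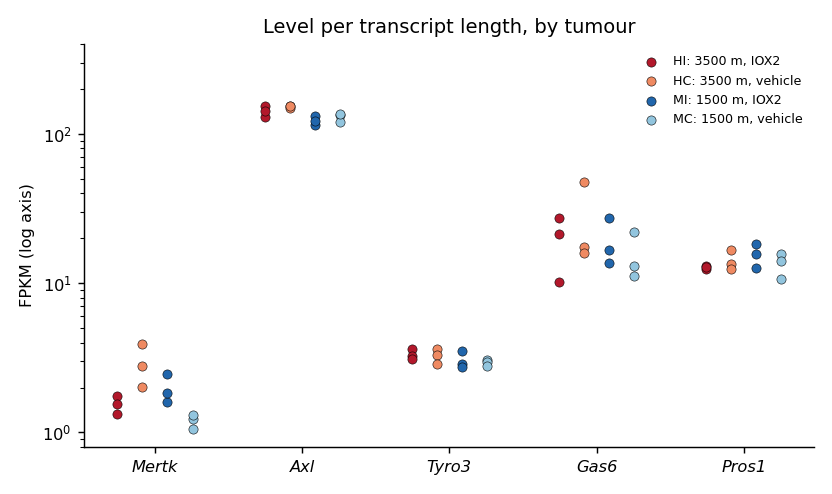
Deposited FPKM of the 5 genes on a log axis, with 1 point per tumour and colours for the groups HI, HC, MI and MC. Axl lies between 114.8 and 153 FPKM in every tumour, and Mertk between 1.06 and 3.91 FPKM.

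The order of the lower receptors was not the same in all tumours. Tyro3 was above Mertk in FPKM in 11 of 12 libraries, and in HC1 the ratio of Tyro3 to Mertk was 0.920. The ratio was 1.03 in HC3 and highest in MC3, at 2.62. This order rests on the lengths implied by FPKM, 7378 bases for Mertk and 5043 for Tyro3. By raw counts Mertk was above Tyro3 in HC1 (913 against 574), HC3 (806 against 565) and MI1 (709 against 559). The Mertk share of the 3 receptors' FPKM ran from 0.759% in MC3 to 2.43% in HC1. For the ligands, Gas6 exceeded Pros1 in FPKM in 10 of 12 libraries, with ratios of 0.801 in HI3 and 2.87 in HC1 at the ends.

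Spread across the 12 tumours, as the highest over the lowest CPM, was 4.61 for Gas6 and 3.54 for Mertk. It was 1.66 for Pros1, 1.39 for Axl and 1.33 for Tyro3. The genes with wide spread were thus the ligand Gas6 and the receptor Mertk, while the abundant Axl and the scarce Tyro3 varied little.

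The promoters of Mertk and Tyro3 are shown because IOX2 acts through hypoxia-inducible factors (HIFs), which bind the core ACGTG or GCGTG. The windows are the 250 bases before the RefSeq start, from the GRCm38.p6 build, on the plus strand at chr2:128698665-128698914 for Mertk and chr2:119799264-119799513 for Tyro3. Capitals mark a match to the core, searched on both strands. The cores differ in the first base and so do not overlap at one position.

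Mertk: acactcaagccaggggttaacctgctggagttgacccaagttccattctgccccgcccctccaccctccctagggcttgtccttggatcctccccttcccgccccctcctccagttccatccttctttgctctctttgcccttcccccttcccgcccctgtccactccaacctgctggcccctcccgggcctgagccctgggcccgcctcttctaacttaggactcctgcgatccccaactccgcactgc

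Tyro3: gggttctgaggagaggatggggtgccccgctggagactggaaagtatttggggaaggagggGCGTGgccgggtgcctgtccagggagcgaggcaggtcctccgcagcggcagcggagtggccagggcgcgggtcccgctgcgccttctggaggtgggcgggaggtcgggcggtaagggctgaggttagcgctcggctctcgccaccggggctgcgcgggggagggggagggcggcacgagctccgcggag

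The Tyro3 window held 1 GCGTG match, 189 bases before the start on the gene's own strand. No match to ACGTG or GCGTG was found in the windows of Mertk, Axl, Gas6 and Pros1. Bases just after the start occurred in an annotated sense transcript for Axl, Tyro3 and Pros1. For Mertk and Gas6 they were not found in one, so this check did not place the starts of those genes. Of 32851 mouse promoter windows of the same length, 38.6% held at least 1 of the cores, 16.6% ACGTG and 28.2% GCGTG. G and C made up 63.6% of the Mertk window, which held 7 CpG pairs, and 73.2% of the Tyro3 window, which held 24.

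Mertk had its highest levels in vehicle-treated tumours at altitude and its lowest in vehicle-treated tumours at ambient altitude. In CPM, which serves to compare 1 gene between tumours, Mertk was at 13.4, 11.2 and 9.61 in HI1 to HI3 and at 27.9, 14.8 and 20.9 in HC1 to HC3. In the ambient groups it was at 18.0, 11.4 and 14.7 CPM in MI1 to MI3 and at 8.92, 9.69 and 7.89 CPM in MC1 to MC3. These rest on 310 to 913 counts per library. Every HC tumour lay above every HI and every MC tumour, and every MI tumour lay above every MC tumour. Groups did not overlap in 21.7% of all tested genes for HC against MC, 11.4% for HI against HC, 11.1% for MI against MC and 14.6% for HI against MI.

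The group means were 11.4 ± 1.90 CPM in HI, 21.2 ± 6.56 CPM in HC, 14.7 ± 3.33 CPM in MI and 8.83 ± 0.904 CPM in MC (SD, n = 3 each). From high to low the order was HC, MI, HI and MC, and each group's range overlapped that of its neighbour in this order. The order thus rests on pairs that are further apart than neighbours.

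The fitted log2 change of Mertk was 1.26 for HC against MC and -0.37 for HI against MI. It was 0.74 for MI against MC and -0.89 for HI against HC. The altitude difference with IOX2 minus that with vehicle, the interaction, was -1.63. Averaged over treatment the altitude difference was 0.45, and averaged over altitude the IOX2 difference was -0.08. Mertk was chosen for this crossing pattern, so these values carry no test. Without HC1, the highest library, the log2 change was 1.02 for HC against MC, -0.65 for HI against HC and -1.38 for the interaction.

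**Figure D2:**
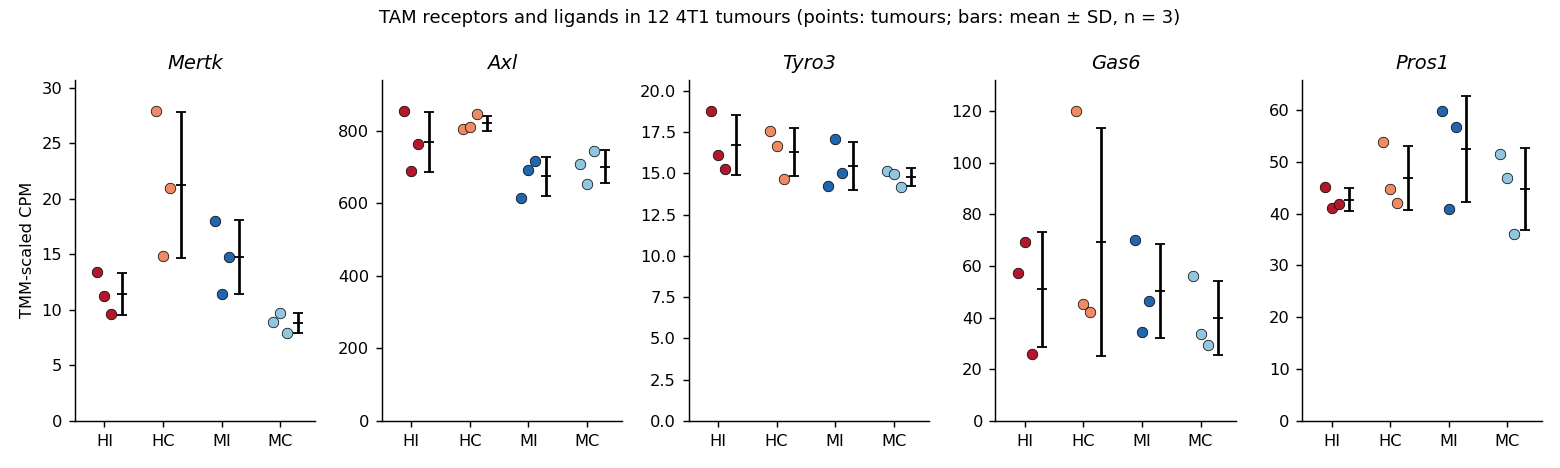
Library-size-scaled CPM of the 5 genes in each tumour, in groups HI, HC, MI and MC, with each axis starting at 0; points are tumours and bars the mean ± SD of 3. Mertk averages 21.2 CPM in HC and 8.83 CPM in MC, and the highest Gas6 value, 120.2 CPM, is that of HC1.

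Mertk is best known on macrophages, but which cells made it in these tumours was not measured. Bulk tumour RNA cannot tell fewer cells from less RNA per cell. The 14 macrophage markers summed to 1298 to 1606 CPM in HI and 1300 to 1907 CPM in HC, and to 1679 to 1936 CPM in MI and 1737 to 2090 CPM in MC. None of the 14 was at 0 in any library. The median sums were 1503 CPM in HI, 1604 CPM in HC, 1901 CPM in MI and 1936 CPM in MC.

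Set against the mean log2 CPM of the macrophage markers, Mertk stood at -1.62, -2.12 and -2.15 in HI and at -1.21, -1.74 and -1.14 in HC. On the same log2 scale it stood at -1.57, -1.91 and -1.69 in MI and at -2.72, -2.25 and -2.68 in MC. MC lay below every library of the other 3 groups on this scale. The same held against the endothelial, fibroblast and epithelial markers, so it was not particular to macrophage markers. Against dendritic-cell markers MC overlapped HI and MI. Mertk was picked by these same values, and the part of macrophage number in its levels was not tested. In HC against MC, 6 of the 14 macrophage markers had a log2 change above 0 and 8 below it, with a median of -0.14, beside -0.01 for all tested genes. Mrc1 and Cd163, scavenger receptors of tissue macrophages, were at 1.06 and 1.72. Cx3cr1 and Fcgr1, a chemokine receptor and an antibody receptor, were at -1.53 and -0.82. These 4 of the 14 were named after their values were seen, as the markers without overlap. Of all tested genes, 21.7% had no overlap in that comparison, in either direction. None of the 14 markers passed the edgeR threshold in that comparison (smallest adjusted p = 0.231, for Mrc1).

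Markers of other cells were set beside Mertk as well. The 9 endothelial markers summed to 243 to 275 CPM in HI, 302 to 379 CPM in HC, 319 to 442 CPM in MI and 330.1 to 339 CPM in MC, with none at 0 in any library. All 9 had a log2 change below 0 in HI against HC, and all 9 in the interaction. In HI against HC 6 of the 9 were lower without overlap, beside 5.61% of all tested genes. In HC against MC, 4 were above 0 and 5 below, and in MI against MC 8 were above 0. None of the 9 passed the edgeR threshold in any of the 7 comparisons. The 5 fat-cell markers summed to 27.6 to 194 CPM in HI, 51.7 to 394 CPM in HC, 48.1 to 98.2 CPM in MI and 25.1 to 39.4 CPM in MC, with none at 0.

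Over the 12 libraries Mertk had r = 0.52 with the endothelial markers (rho = 0.50), 0.42 without the 2 libraries farthest from their median and 0.84 with group means removed. With the fat-cell markers r was 0.58 (rho = 0.58), 0.31 without the 2 farthest libraries and 0.28 with group means removed. With the macrophage markers r was 0.35 (rho = 0.13), 0.16 without the 2 farthest and 0.51 with group means removed. With group means removed, r was also 0.71 for skeletal muscle, 0.65 for fibroblast, 0.64 for pericyte and smooth muscle, and 0.57 for red-cell markers. For the remaining lists, fat cells included, it lay between -0.32 and 0.28. The part of these cells in the levels of Mertk was not tested.

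**Figure D3:**
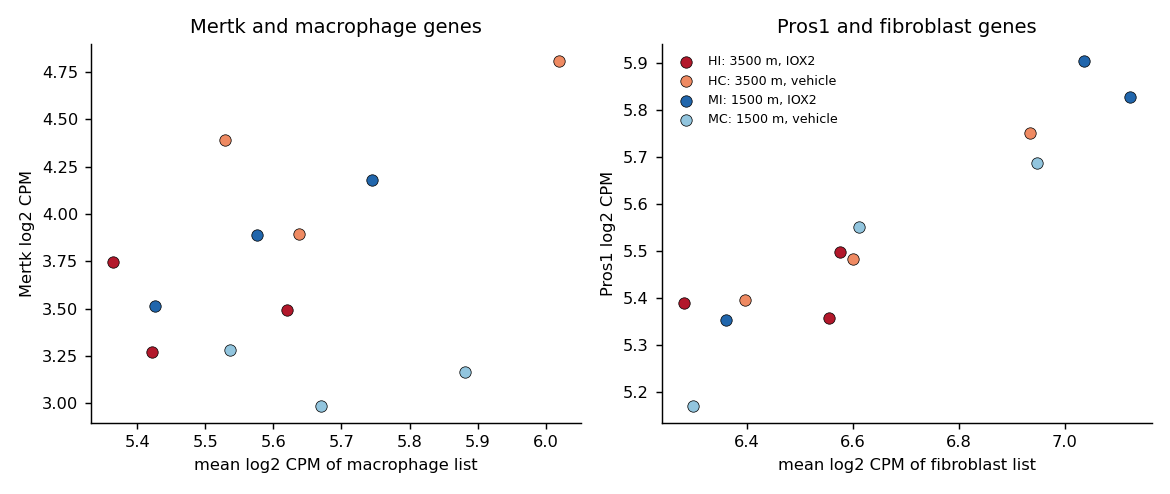
Left, log2 CPM of Mertk against the mean log2 CPM of the macrophage markers; right, log2 CPM of Pros1 against that of the fibroblast markers, with 1 point per tumour. MC tumours lie lowest in Mertk for their macrophage level, as they also do for endothelial, fibroblast and epithelial markers. Pros1 runs along the fibroblast markers with r = 0.94 over 12 tumours.

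Axl was slightly higher at altitude in both treatments, and none of the differences passed the test over all genes. It was at 855, 689.6 and 763 CPM in HI and 806, 809 and 845 CPM in HC. The ambient groups had 615, 692 and 717 CPM in MI and 707, 653 and 744 CPM in MC. Every HC tumour was above every MC tumour, and HI overlapped MI through HI2.

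For HC against MC the log2 change of Axl was 0.23 (SE 0.10), with an edgeR adjusted p = 0.383. For HI against MI it was 0.19 (SE 0.10, edgeR adjusted p = 0.360). Averaged over treatment the log2 change was 0.21 (SE 0.07, edgeR adjusted p = 0.160), and the lowest adjusted p in any other setting tried was 0.0706, from DESeq2. Axl was the 1 of the 4 tested genes with no overlap between HC and MC. Of all tested genes, 10.3% were higher in HC without overlap. With IOX2 the log2 change was -0.06 for MI against MC (edgeR adjusted p = 0.807) and -0.09 for HI against HC (edgeR adjusted p = 0.977). Their difference, the interaction, was -0.04 (SE 0.14, edgeR adjusted p = 0.934).

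Tyro3 was nearly flat. It was at 18.8, 16.1 and 15.3 CPM in HI, 17.6, 16.7 and 14.7 CPM in HC, 14.2, 17.1 and 15.1 CPM in MI, and 15.2, 15.0 and 14.1 CPM in MC. All groups overlapped, and the log2 changes lay between -0.03 and 0.14 over the 7 comparisons (edgeR adjusted p = 0.437 to 0.998). The 95% interval of the HC against MC difference ran from -0.11 to 0.40 on the log2 scale.

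Gas6 had its highest value in HC1, the library with the highest summed CPM of fat-cell and of fibroblast markers. It was at 57.4, 69.3 and 26.1 CPM in HI, 120.2, 45.3 and 42.2 CPM in HC, 70.1, 34.3 and 46.5 CPM in MI, and 56.2, 33.8 and 29.3 CPM in MC. The groups all overlapped. For HC against MC the log2 change was 0.80 (SE 0.46, edgeR adjusted p = 0.532), and without HC1 it was 0.14. The interaction was -0.78 (SE 0.65, edgeR adjusted p = 0.690), and without HC1 it was -0.12. HC1 likewise set the sign of HI against HC, which was -0.44 with it (edgeR adjusted p = 0.977) and 0.22 without it. By mean log2 CPM, HC1 was still highest in fat-cell markers (4.97). In fibroblast markers its 6.93 was below that of MI3 (7.12), MI1 (7.04) and MC1 (6.95). The part of fat or fibroblast RNA in the Gas6 values was not tested.

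Pros1 was at 45.1, 41.0 and 41.9 CPM in HI, 53.8, 44.7 and 42.1 CPM in HC, 59.8, 40.9 and 56.8 CPM in MI, and 51.5, 46.8 and 36.0 CPM in MC. All groups overlapped, although HI reached no higher than 45.1 CPM while 2 of the 3 MI tumours were above 56. The log2 change was -0.30 (SE 0.16) for HI against MI, with an edgeR adjusted p = 0.386. It was 0.07 for HC against MC (edgeR adjusted p = 0.927), and the interaction was -0.36 (SE 0.23, edgeR adjusted p = 0.644). Pros1 followed the 9 fibroblast markers across tumours, with Pearson r = 0.94 and Spearman rho = 0.92 over 12 libraries. Without the 2 libraries farthest from the median of those markers r was 0.91, and with group means removed it was 0.94. Pros1 also followed the skeletal muscle markers, with r = 0.80 (rho = 0.77, and r = 0.92 with group means removed). With the pericyte and smooth muscle markers Pros1 had r = 0.78 (rho = 0.69, and r = 0.74 with group means removed). It ran against the epithelial markers with r = -0.70 (rho = -0.57, and r = -0.62 without the 2 libraries farthest from the median). The libraries share depth and a fixed total, so these correlations describe the tumours and carry no p.

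In none of the 7 comparisons did edgeR, DESeq2 or limma give any of the 4 tested genes an adjusted p under 0.05. At an unadjusted p under 0.05 by edgeR, 1 of the 4 was counted for HC against MC and 1 for altitude averaged over treatment, Axl in both. Over all tested genes, edgeR called 0% in HC against MC, HI against MI, HI against HC and the interaction. It called 0.0262% in MI against MC, 0.498% at altitude averaged over treatment and 0.0393% for IOX2 averaged over altitude, where 0.177% had no overlap. At an unadjusted p under 0.05 the shares were 12% in HC against MC, 15.2% in HI against MI, 4.85% in HI against HC, 8.21% in the interaction, 5.12% for IOX2 averaged over altitude and 17.3% for altitude averaged over treatment. By DESeq2 the called genes numbered 307, 379, 18 and 30 in HC against MC, HI against MI, HI against HC and the interaction, and by limma 0 in each of them. With replicate number as a block, edgeR called 13 genes in HC against MC. An exact test of 3 tumours against 3 cannot give a p below 0.1.

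**Figure D4:**
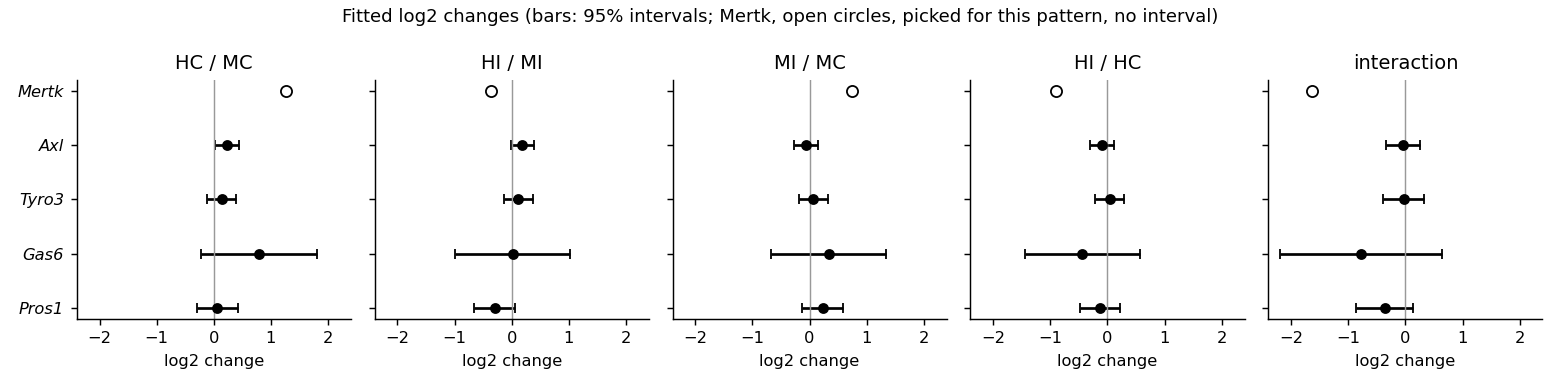
Fitted log2 changes of the 5 genes in HC against MC, HI against MI, MI against MC, HI against HC and the interaction, with 95% intervals that are not adjusted for the number of genes. Mertk, an open circle without interval, runs from -1.63 in the interaction to 1.26 in HC against MC; Axl and Tyro3 stay within 0.23 of 0 in all 5 panels.

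Across the 12 tumours, Mertk and Gas6 tended to be high together, with Pearson r = 0.68 and Spearman rho = 0.57. Without the 2 libraries farthest from the median of Gas6, r was 0.38, so much of the relation rested on those libraries. With all 12 libraries and group means removed, r was 0.75. Gas6 followed the fat-cell markers with r = 0.80 (rho = 0.78, and r = 0.81 without the 2 libraries farthest from the median). It followed the skeletal muscle markers with r = 0.77 (rho = 0.83, and r = 0.76 without the 2 farthest). Pros1 and Gas6 had r = 0.60 (rho = 0.60, and r = 0.67 without the 2 libraries farthest from the median of Pros1). Mertk and Axl, both on phagocytes, had r = 0.33 across all tumours (rho = 0.29), 0.66 without the 2 libraries farthest from the median of Axl, and -0.14 with group means removed.

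Genes most like Mertk, by Pearson r of log2 CPM over the 12 libraries among 10835 candidates, were Ddhd1, Egr1, Frmd4b, Tfec, Nrep, Smpdl3a, Cyyr1 and Ptprb, with r from 0.89 to 0.92. Ddhd1, which encodes a phospholipase, averaged 15.4 CPM in HI, 19.9 CPM in HC, 18.0 CPM in MI and 13.6 CPM in MC. Egr1, an early-response transcription factor, averaged 45.2 CPM in HI, 67.0 CPM in HC, 47.2 CPM in MI and 35.0 CPM in MC. Tfec, a transcription factor of the macrophage lineage, averaged 7.88 CPM in HI, 11.3 CPM in HC, 8.10 CPM in MI and 5.62 CPM in MC. Ptprb, a phosphatase of vessel lining cells, averaged 20.6 CPM in HI, 26.2 CPM in HC, 24.9 CPM in MI and 17.8 CPM in MC. The choice by likeness to Mertk fixes that these genes share its order of groups.

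For the other genes of the family the closest patterns were different ones. Genes close to Axl included Rin1 and Efl1, with r = 0.87 each. Tyro3 was closest to Dll1 (r = 0.92), Slc25a37 (r = 0.88) and Kif3b (r = 0.88). Slc25a37 encodes the mitochondrial iron importer of red-cell precursors. Gas6 was closest to Cd302 (r = 0.95), Galnt16 (r = 0.93) and Sod3 (r = 0.93). Pros1 was closest to Ptprg (r = 0.95), Igf1 (r = 0.92) and Bicc1 (r = 0.92).

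The wider pathway of dead-cell clearance was read through 9 lists with 100 genes, of which 93 were tested. In HC against MC, HI against MI, MI against MC, HI against HC, the interaction and the averaged IOX2 difference, edgeR called none of the 93. At an unadjusted p under 0.05 the counts were 16 genes in HC against MC, 18 in HI against MI and 7 in MI against MC. These are 17.2%, 19.4% and 7.53% of the 93, beside 12%, 15.2% and 9.39% of all tested genes. For altitude averaged over treatment, 10 genes were higher and 21 lower at that level, 33.3% of the 93 beside 17.3% of all tested genes. After adjustment 2 of the 93 passed, Scarf1 and Thbs1, both lower at altitude, beside 0.262% of all tested genes called lower.

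Scarf1, a scavenger receptor that takes up dying cells through C1q, was at 7.73, 7.84 and 6.62 CPM in HI and 7.43, 7.15 and 7.01 CPM in HC. It was at 11.1, 10.7 and 9.44 CPM in MI and 8.97, 12.4 and 12.9 CPM in MC. Every tumour at altitude was below every ambient tumour, a pattern found in 0.897% of all tested genes, and in 1.95% in either direction. Averaged over treatment the log2 change was -0.58 (SE 0.11, edgeR adjusted p = 0.0446). With the replicate block the call was lost (edgeR adjusted p = 0.0506).

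Thbs1 encodes thrombospondin 1, which bridges dying cells to phagocytes and also restrains vessel growth. It was at 483, 694 and 554 CPM in HI, 374, 501 and 529.6 CPM in HC, 887, 732 and 923 CPM in MI, and 768, 716 and 675 CPM in MC. Only HI2, of the 6 tumours at altitude, reached into the ambient range. Averaged over treatment the log2 change was -0.59 (SE 0.11, edgeR adjusted p = 0.0464). Both calls stood close to the threshold. The call was lost in 9 of 12 fits that left out 1 library for Scarf1 (adjusted p = 0.0418 to 0.139) and in 10 of 12 for Thbs1 (adjusted p = 0.0322 to 0.130). Leaving out HI3 or MI2 kept both calls, and leaving out MC1 kept that of Scarf1.

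Markers of endothelium, a source of Scarf1, were lowest in HI. In HC against MC their median log2 change was -0.045, and in HI against MI it was -0.60. At altitude averaged over treatment 8 of the 9 were below 0, as Scarf1 and Thbs1 were, with a median log2 change of -0.37. At an unadjusted p under 0.05, 7 of the 9 were lower and 1 higher, beside 8.65% and 8.64% of all tested genes. None of the 9 passed the edgeR threshold after adjustment. Their part in the levels of Scarf1 and Thbs1 was not tested.

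**Figure D5:**
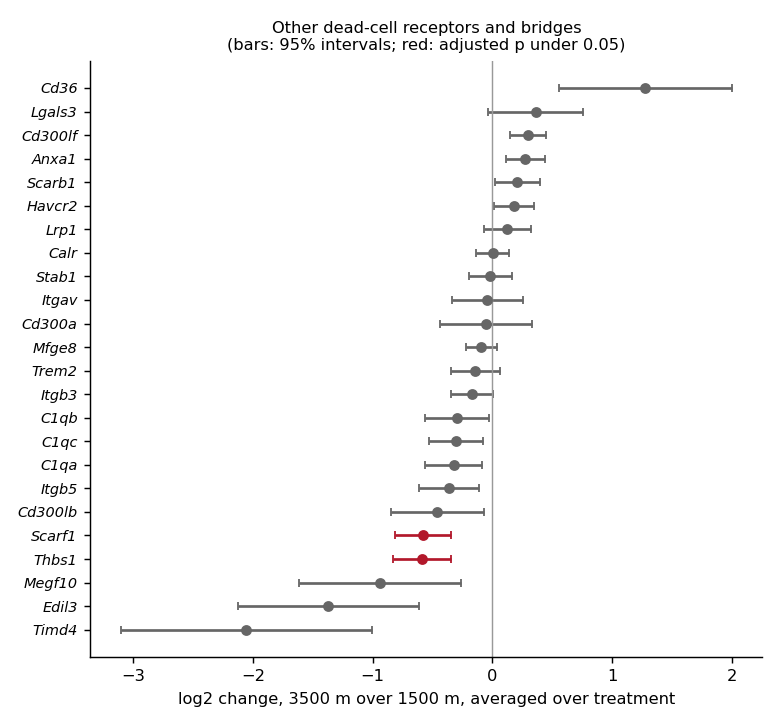
Log2 changes of 24 other dead-cell receptors and bridging proteins at altitude averaged over treatment, with 95% intervals that are not adjusted for the number of genes. Scarf1 and Thbs1, in red, passed the adjusted threshold; Cd36 lies farthest to the right at 1.28 and Timd4 farthest to the left at -2.05.

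The list of other receptors and bridges held 24 tested genes of 29. At altitude averaged over treatment 16 of them had a log2 change below 0 and 8 above it, with a median of -0.12, beside -0.02 for all tested genes. Cd300lf, a lipid receptor that binds phosphatidylserine, did not pass, at 0.30 (SE 0.07, edgeR adjusted p = 0.0764). Timd4, a phosphatidylserine receptor of resident macrophages, was at -2.05 (SE 0.48, edgeR adjusted p = 0.0786), and ranged over 0.247 to 1.12 CPM in HI, 0.245 to 0.380 CPM in HC, 1.05 to 6.10 CPM in MI and 0.883 to 1.49 CPM in MC. Edil3, a secreted bridge between phosphatidylserine and integrins, was at -1.37 (SE 0.35, edgeR adjusted p = 0.0939). In HC against MC, Cd300lf was at 33.7, 36.8 and 36.0 CPM in HC and 24.9, 25.5 and 25.1 CPM in MC, without overlap. The log2 change of Cd300lf there was 0.50 (SE 0.10, edgeR adjusted p = 0.156). In that comparison 4 of the 24 genes were higher without overlap and 5 lower, beside 10.3% and 11.4% of all tested genes. Cd36, a scavenger receptor for oxidized lipid that fat cells also make, had a log2 change of 2.11 in HC against MC (SE 0.48, edgeR adjusted p = 0.203). Its values were 119, 43.4 and 30.8 CPM in HC and 17.1, 11.6 and 16.1 CPM in MC, highest in HC1, where fat-cell markers were also highest.

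The steps upstream of the ligands showed no call. Of the 5 genes of the vitamin K cycle, Ggcx, the carboxylase that activates Gas6 and protein S, had the smallest p at altitude averaged over treatment. Its log2 change was -0.31 (SE 0.10, edgeR adjusted p = 0.169), and its means were 9.89 CPM in HI, 11.1 CPM in HC, 13.9 CPM in MI and 12.1 CPM in MC. Of the 7 tested genes that control phosphatidylserine exposure, Ano6, a lipid scramblase, had the smallest p in the same comparison. Its log2 change was 0.15 (SE 0.06, edgeR adjusted p = 0.231).

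Receptor shedding removes Axl and Mertk from the cell surface through the proteases ADAM10 and ADAM17. Of these 4 genes, Rhbdf1, which encodes a partner protein of ADAM17, had a log2 change of 0.24 at altitude averaged over treatment (SE 0.06, edgeR adjusted p = 0.0881). Adam10 had -0.31 (SE 0.13, edgeR adjusted p = 0.252), and Adam17 averaged 98.7 CPM in HI, 103 CPM in HC, 104 CPM in MI and 101 CPM in MC. No shedding gene passed.

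Downstream of the receptors, the 14 tested genes of the engulfment machinery had a median of -0.13 at altitude averaged over treatment, with 11 below 0 and none called. Gulp1, an adaptor of engulfment receptors, was at -1.01 (SE 0.35, edgeR adjusted p = 0.182). The 15 genes of digestion and lipid handling had a median of -0.0041, with 7 above 0 and 8 below. Cybb, an oxidase subunit of phagocytes, had the smallest p there, at -0.47 (SE 0.17, edgeR adjusted p = 0.196). The 6 tested brakes on engulfment had a median of -0.05, and Siglecg, an inhibitory receptor, was at -1.91 (SE 0.73, edgeR adjusted p = 0.217). MI1 alone held 5.85 CPM of Siglecg, and the other 11 tumours held under 1 CPM.

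TAM signalling feeds back on cytokine pathways. In this list of 11 tested genes, Nfkbia, the inhibitor of NF-kB, was at 126, 83.2 and 76.0 CPM in HI and 76.8, 106 and 103 CPM in HC. It was at 76.5, 66.6 and 53.1 CPM in MI and 54.6, 64.2 and 60.1 CPM in MC. MI1 lay above HI3, and every other altitude tumour lay above every ambient one. The log2 change at altitude averaged over treatment was 0.61 (SE 0.14, edgeR adjusted p = 0.0769). Twist2, a repressor of cytokine transcription, had the smallest interaction p of the list, at 1.58 (SE 0.41, edgeR adjusted p = 0.596). Its means were 7.98 CPM in HI, 4.84 CPM in HC, 4.48 CPM in MI and 8.16 CPM in MC.

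Protein S is also an anticoagulant cofactor, and its partners there were read as a list of 7 tested genes. None was called. F5, which encodes coagulation factor V, had the smallest p at altitude averaged over treatment, with a log2 change of -0.84 (SE 0.24, edgeR adjusted p = 0.125). In MI against MC, F3, which encodes tissue factor, had the smallest p of all 93 pathway genes, at 0.47 (SE 0.14, edgeR adjusted p = 0.492). F3 was at 14.5, 13.4 and 12.6 CPM in MI and 10.1, 10.3 and 8.80 CPM in MC, without overlap, as were 11.1% of all tested genes.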

How the data were processed

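The authors worked on the GRCm39 build, per the submitters' processing notes, which list HTSeq 0.11.2, HISAT2 2.1.0 and fastp 0.20.1, besides R 3.5.1 and DESeq2 1.22.2. Not given in the sources used here are annotation and strand setting. The authors deposited whole-number counts for 35434 genes and FPKM values for the same genes. The length implied by each FPKM and count was whole within 0.01 base for 100% of values.

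Tests on the counts used edgeR 4.0.16 under R 4.3.3 (filterByExpr, TMM factors, quasi-likelihood fit of all 12 libraries, 1 mean per group). Adjusted p values are Benjamini-Hochberg over the 15269 genes tested. CPM are TMM-scaled, and correlations used log2 CPM with a prior count of 2. FPKM served to compare genes. Alternatives were DESeq2 1.42.0, limma 3.58.1 (voom, or log2 FPKM plus 1 or 0.1), DESeq2 size factors, other filters, a replicate block, only the groups compared, and each library left out. The code was tested on simulated data.

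The genes, the lists and the comparisons were chosen with earlier results of these data known. Besides the 5 genes, each list's genes with an adjusted p under 0.05 were named, or up to 3 with the smallest p, along with the 8 genes most like Mertk and the 3 most like each other gene, at a mean of at least 5 CPM. An item that this rule names is not reported here. Floors of 3 counts equal 0.0750 to 0.0948 CPM and cover counting error only. Each library came from a different mouse. Same-numbered libraries of HC and MC deviated together weakly (r = 0.278, 0.153 and 0.209). The labels name no pairing, so the main fit used none and the replicate block was kept as an alternative. Promoter windows came from RefSeq, GRCm38.p6, with 5 of 5 genes matched by symbol.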

Additional observations from a re-analysis of the deposited data

How the results depend on the processing

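None of the 4 tested genes had an adjusted p under 0.05 in any setting tried. The lowest were 0.0706 for Axl at altitude averaged over treatment by DESeq2 and 0.0921 for Pros1 in HI against MI without MI2. Mertk kept its sign in every setting except IOX2 averaged over altitude (-0.18 to 0.04 with 1 library left out). Its HC against MC change was 0.80 and its interaction -1.01 in limma on log2(FPKM + 1), where the added 1 is close to the gene's own level. With 1 library left out it ran from 1.02 to 1.47 in HC against MC and from -1.83 to -1.38 in the interaction.

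The counts of called genes moved most. For HC against MC the count was 0, and it was 307 by DESeq2, 2 without a filter, 13 with the replicate block, 63 with only the groups compared and 0 to 40 with 1 library left out (40 without HI1). For HI against MI it was 0, and 379 by DESeq2, 1 with DESeq2 size factors, 16 without a filter, 2 with the 1 CPM filter and 0 to 520 with 1 library left out (520 without MI2). For MI against MC it was 4, and 22 by DESeq2, 0 by limma-voom, 2 with only the groups compared and 0 to 6 with 1 library left out. For HI against HC it was 0, and 18 by DESeq2, 3 with the replicate block and 0 to 0 with 1 library left out. The interaction had 0, and 30 by DESeq2 and 0 to 2 with 1 library left out. Altitude averaged over treatment had 76, and 845 by DESeq2, 166 without a filter, 20 by limma-voom, 36 by limma on log2(FPKM + 1), 155 with the replicate block and 2 to 339 with 1 library left out. IOX2 averaged over altitude had 6, and 11 by DESeq2 and 4 to 6 with 1 library left out. The causes were not tested.

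Signs turned only where a change was near 0 or rested on 1 library. Gas6 in HI against MI was 0.02, and -0.035 by limma-voom, -0.011 and -0.015 by limma on log2 FPKM plus 1 and plus 0.1, and -0.27 to 0.33 with 1 library left out. Averaged over altitude, the IOX2 change of Gas6 was -0.05, and 0.019 with the replicate block and -0.21 to 0.28 with 1 library left out, and that of Pros1 ran from -0.021 to 0.12. With 1 library left out, ranges were -0.73 to 0.22 for Gas6 in HI against HC, -0.069 to 0.18 for Pros1 in HC against MC, and -0.11 to 0.023 for Axl and -0.013 to 0.14 for Tyro3 in MI against MC. They were -0.054 to 0.10 for Tyro3 in HI against HC, and -0.12 to 0.038 for Axl and -0.12 to 0.051 for Tyro3 in the interaction. Scarf1 at altitude averaged over treatment missed the threshold by limma-voom (adjusted p = 0.0632) and with the replicate block (edgeR adjusted p = 0.0506), among other settings. Thbs1 missed it by limma-voom (adjusted p = 0.0568) and with DESeq2 size factors (edgeR adjusted p = 0.0501), among other settings. For both genes together, 7 fits that kept all libraries lost a call. The highest adjusted p of any such edgeR, DESeq2 or limma fit was 0.0723 for Scarf1 and 0.0568 for Thbs1. The replicate block changed no other call among the named genes of the family. Same-numbered libraries did not all deviate together in HI against MI, MI against MC and HI against HC (lowest r 0.0717, -0.104 and -0.0745).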
